A study of Mus musculus with 22 samples.

Results

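Oligodendrocyte and myelin genes were followed through the hippocampus, cortex and cerebellum of wild-type mice and of circTulp4-deficient (CD) mice. The 39 genes form a list of known markers and myelin genes, each found in the deposited table through its RefSeq transcripts, and are 39 of the 23037 genes matched to a symbol. The list was split by stage. Precursor markers were Pdgfra and Cspg4, newly formed oligodendrocytes were marked by Gpr17, Enpp6 and Bcas1, and 5 genes encode transcription factors of the lineage. The other 29 mark mature cells, 16 of them for proteins of myelin and its membranes, 4 for enzymes of myelin lipids and 9 for further proteins of mature oligodendrocytes.

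RNA was measured by CelSeq2, which reads the 3′ ends of transcripts, in 22 libraries from 8 mice on a C57BL/6 background. Wild-type mice (4) gave 3 hippocampus, 4 cortex and 4 cerebellum libraries, and CD mice (4), called KO in some labels, gave 4 hippocampus, 4 cortex and 3 cerebellum libraries. In CD mice, CRISPR-Cas9 editing replaced the AG of the splice acceptor used for backsplicing of circTulp4 by TC at the Tulp4 locus, a change meant to lower circTulp4 and not linear Tulp4. The age and sex of the mice used for sequencing are not given in the sources used here. Levels are normalised read counts (cpm, scaled over all libraries). Because a 3′ count is not divided by length and depends on the transcript chosen, levels are compared between samples and not between genes.

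Oligodendrocytes arise from precursor cells that carry Pdgfra, the receptor for platelet-derived growth factor, and Cspg4, the NG2 proteoglycan. Precursors stay in the adult brain, where some of them leave the cell cycle, pass through a short premyelinating stage and wrap axons with a membrane rich in galactolipids and in a small set of abundant proteins. The myelin of the adult forebrain lies mostly in fibre tracts such as the alveus and fimbria of the hippocampus and the white matter below the cortex.

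Depth, counted with 1 transcript per gene, was between 2760846 and 8858937 counts. In tissue RNA, fewer cells of a type and less RNA per cell cannot be told apart. The tissues carried their own markers: hippocampal, cortical and cerebellar marker lists (5 genes each) were each highest in the labelled region, with summed levels of 1389 to 2019 cpm, 677 to 867 cpm and 4725 to 5608 cpm there and at most 481 cpm, 159 cpm and 66.5 cpm elsewhere. The summed level of 8 choroid plexus markers was uneven in the hippocampus, from 30.3 cpm to 382 cpm in the wild-type library of mouse m244, against 7.74 to 18.2 cpm in the cortex and 21.5 to 40.3 cpm in the cerebellum. The Schwann cell marker Prx did not exceed 0.461 cpm in any library. The check of the edited gene went against a label in 1 case. First-exon counts of Tulp4 were taken as the excess of 1 of its transcripts over another. They ran from 2.71 to 3.69 cpm in wild-type hippocampi and from 0.423 to 0.573 cpm in the hippocampi of CD mice m138, m190 and m242, but reached 3.98 cpm (16 counts) in the library labelled CD hippocampus of mouse m118. The cortex and cerebellum of m118 had 0.896 and 1.55 cpm, below the lowest wild-type libraries there (1.45 and 3.12 cpm). The gap was small in both regions, with CD mouse m190 at 1.29 cpm in the cortex and CD mouse m242 at 2.61 cpm (19 counts) in the cerebellum. The lowest wild-type cerebellum had 17 counts. Why these counts should differ by genotype was not tested. The median genotype difference of the mature members in the hippocampus, and the members with the lowest unadjusted p there, are also given without the library labelled CD hippocampus of m118.

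Promoter sequences were examined because many members moved together between regions. The promoter was taken as the 250 bases before the transcription start in RefSeq (GRCm38.p6), which was at hand for 27 of the 39 members. Windows of the precursor gene Pdgfra and of 3 myelin genes are printed 5′ to 3′ on the strand of the gene, chosen after the matches were known so that a window without any match stands beside windows that hold them. Capitals mark matches on either strand to AACAAT or ACAAAG, the letters of SOX factor sites, to CTGGCAC or CTGGTAC, the letters of sites of the myelin regulator Myrf, to CAGCTG, an E-box, or to TATAAA.
Pdgfra (chr5:75152001-75152250, plus strand): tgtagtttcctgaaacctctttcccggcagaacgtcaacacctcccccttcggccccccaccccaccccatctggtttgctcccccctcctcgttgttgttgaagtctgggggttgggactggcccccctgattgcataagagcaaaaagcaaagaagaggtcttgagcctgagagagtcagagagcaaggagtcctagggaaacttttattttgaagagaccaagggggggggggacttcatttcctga
Cnp (chr11:100574689-100574938, plus strand): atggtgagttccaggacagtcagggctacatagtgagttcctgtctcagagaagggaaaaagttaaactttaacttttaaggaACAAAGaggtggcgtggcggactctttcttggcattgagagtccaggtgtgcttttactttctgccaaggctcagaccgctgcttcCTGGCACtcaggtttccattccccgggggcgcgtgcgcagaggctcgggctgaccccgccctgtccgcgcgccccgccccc
Mog (chr17:37023399-37023648, minus strand): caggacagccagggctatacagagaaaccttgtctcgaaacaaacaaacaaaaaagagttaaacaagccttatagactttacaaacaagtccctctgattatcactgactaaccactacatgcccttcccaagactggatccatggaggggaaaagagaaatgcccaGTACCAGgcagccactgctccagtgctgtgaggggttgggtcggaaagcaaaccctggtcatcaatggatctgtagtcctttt
Opalin (chr19:41077114-41077363, minus strand): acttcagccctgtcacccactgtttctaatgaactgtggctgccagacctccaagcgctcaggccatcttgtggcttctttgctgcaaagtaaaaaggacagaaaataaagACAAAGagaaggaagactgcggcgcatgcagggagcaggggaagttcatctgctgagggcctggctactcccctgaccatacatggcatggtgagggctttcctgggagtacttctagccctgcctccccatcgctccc

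Cnp held ACAAAG 167 bases and CTGGCAC 81 bases before the start, Opalin held ACAAAG 139 bases before it, and Mog held CTGGTAC on the opposite strand 83 bases before it, where the printed strand reads GTACCAG. Pdgfra held none of these letters in this window. The starts used for Pdgfra and Cnp lie inside the annotated spans of these genes given with their levels, so each span has bases upstream of the start used. No matches overlapped in the 4 windows. Over the 27 members, CTGGCAC occurred in 4 promoters (Cnp, Hapln2, Lpar1 and Mag; 14.8%) against 4.14% of 27025 promoters, and CTGGTAC occurred in that of Mog alone (3.70%) against 1.80%. ACAAAG was held by 5 members (18.5%) against 16.5% of promoters, AACAAT also by 5 (18.5%) against 9.65%, CAGCTG by 3 (11.1%) against 12.8%, and TATAAA by 2 (7.41%) against 13.0%. These are counts of letters in a window, and no factor was measured on them.

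Most members were highest in the hippocampus. The sums of the mature and of the 2 precursor markers took different orders over the regions by median, though not every mature member did. Mature markers summed to 5532 to 8440 cpm in the 7 hippocampus libraries, to 2405 to 4541 cpm in the 8 cortex libraries and to 3550 to 4597 cpm in the 7 cerebellum libraries. The hippocampus did not overlap either of the other regions, and cortex and cerebellum overlapped each other. Precursor markers summed to 47.1 to 83.7 cpm (hippocampus), 30.9 to 70.9 cpm (cortex) and 16.2 to 33.5 cpm (cerebellum), with overlap between hippocampus and cortex. By median level, 23 of the 39 members ran hippocampus, cerebellum, cortex from high to low, 12 ran hippocampus, cortex, cerebellum, 3 (Gjc3, Trf and Apod) were highest in the cerebellum and Nfasc was highest in the cortex by a margin within the spread between libraries. The 12 included both precursor markers and the mature members Mal, Cldn11, Opalin, Pllp, Gal3st1 and Gsn. Choroid plexus markers and mature markers summed in the hippocampi to 30.3 and 8440 cpm (wild-type mouse m240), 35.8 and 7007 cpm (wild-type m162), 382 and 6884 cpm (wild-type m244), 31.9 and 7927 cpm (labelled CD, m118), 44.2 and 5532 cpm (CD m242), 83.6 and 6513 cpm (CD m138) and 181 and 7335 cpm (CD m190). The part of choroid plexus RNA in the levels of the members was not tested.

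**Figure D1:**
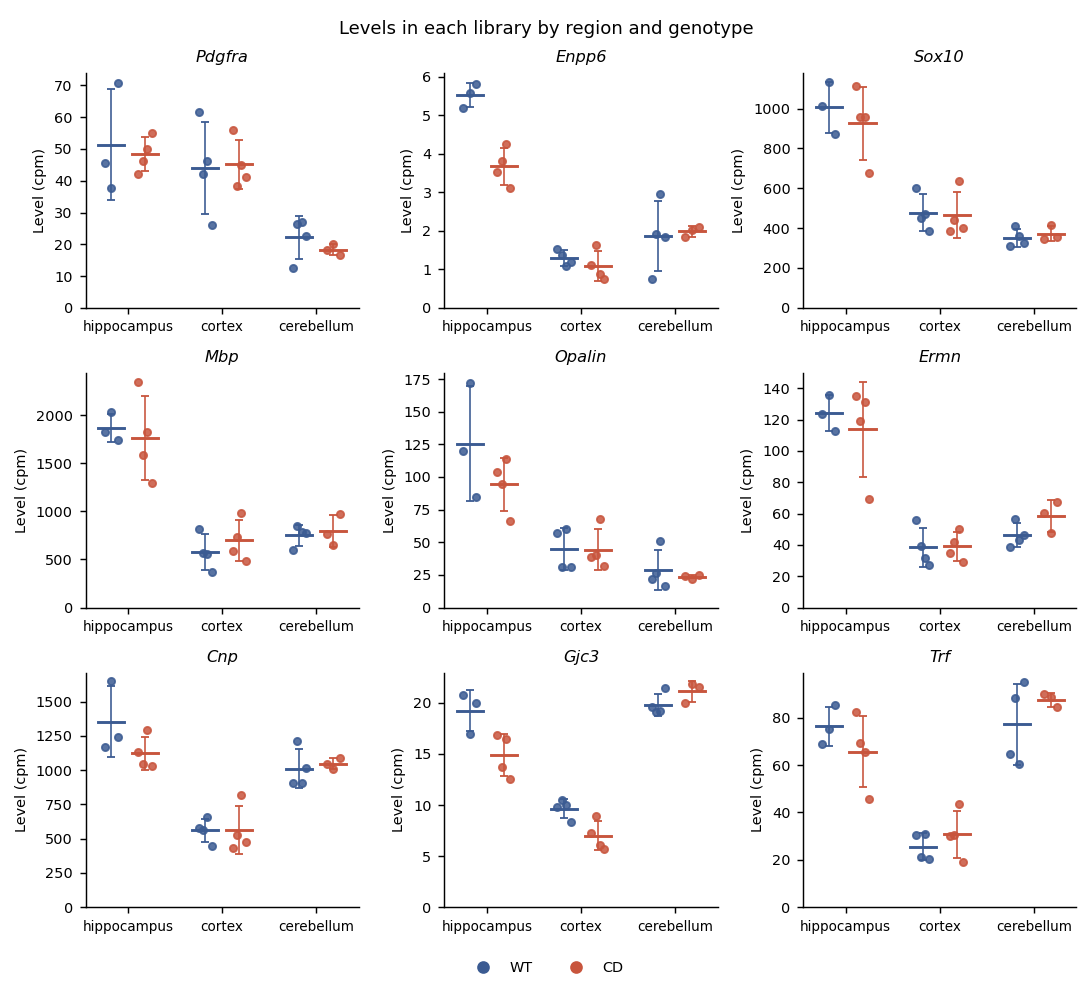
Levels in cpm (linear axis from 0) of 9 members in every library, by region and genotype, with group means (bars) and SD (whiskers). Pdgfra is close in hippocampus and cortex and lowest in the cerebellum, Mbp, Opalin, Ermn, Enpp6 and Sox10 are highest in the hippocampus, and Gjc3, Trf and Cnp are nearly as high or higher in the cerebellum.

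Regions were compared over all 22 libraries with edgeR's quasi-likelihood test, averaging the genotypes. Of 11137 genes tested, 37 were members. Gpr17 and Gal3st1 had too few counts, and Enpp6, Myrf and Aspa reached 5 cpm in 2 or more libraries of 1 region only, the hippocampus, where they were highest, so their entry into the test depended on that region. Their differences from the hippocampus are given as folds with no test, and counts are also given over the other 34, a count added after the values were seen. The 3 pairs of regions share libraries and are given side by side.

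Between hippocampus and cortex, 33 of the 37 members passed an adjusted p (FDR) of 0.01, all of them higher in the hippocampus, against 12.4% of all genes higher in the hippocampus and 13.5% higher in the cortex. With a fold above 2 as well there were 23 members, against 4.03% and 4.38% of all genes. Without Enpp6, Myrf and Aspa the counts were 30 of 34 and, with the fold, 20. The median difference of the 28 mature members tested was 1.17 on the log2 scale and that of all genes was 0.01. The 4 that did not pass were the precursor markers Pdgfra and Cspg4, together with Nfasc and Apod.

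Between hippocampus and cerebellum, 29 of 37 members passed, again all higher in the hippocampus, where 26.0% of all genes were higher and 24.7% lower. Of these, 16 had a fold above 2 (13.0% and 9.76% of all genes). Without Enpp6, Myrf and Aspa the counts were 26 of 34 and 14. The median difference was 0.74 for the mature members and -0.02 for all genes. Both precursor markers passed here.

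Cortex and cerebellum differed in both directions. Of the 37 members, 7 were higher in the cortex (26.0% of all genes) and 10 were higher in the cerebellum (25.7% of all genes), and both counts are near these backgrounds. A fold above 2 was reached by 4 (Pdgfra higher in cortex; Gjc3, Fa2h and Trf higher in cerebellum), against 12.9% and 9.70% of all genes. The median mature difference was -0.22, towards the cerebellum.

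**Figure D2:**
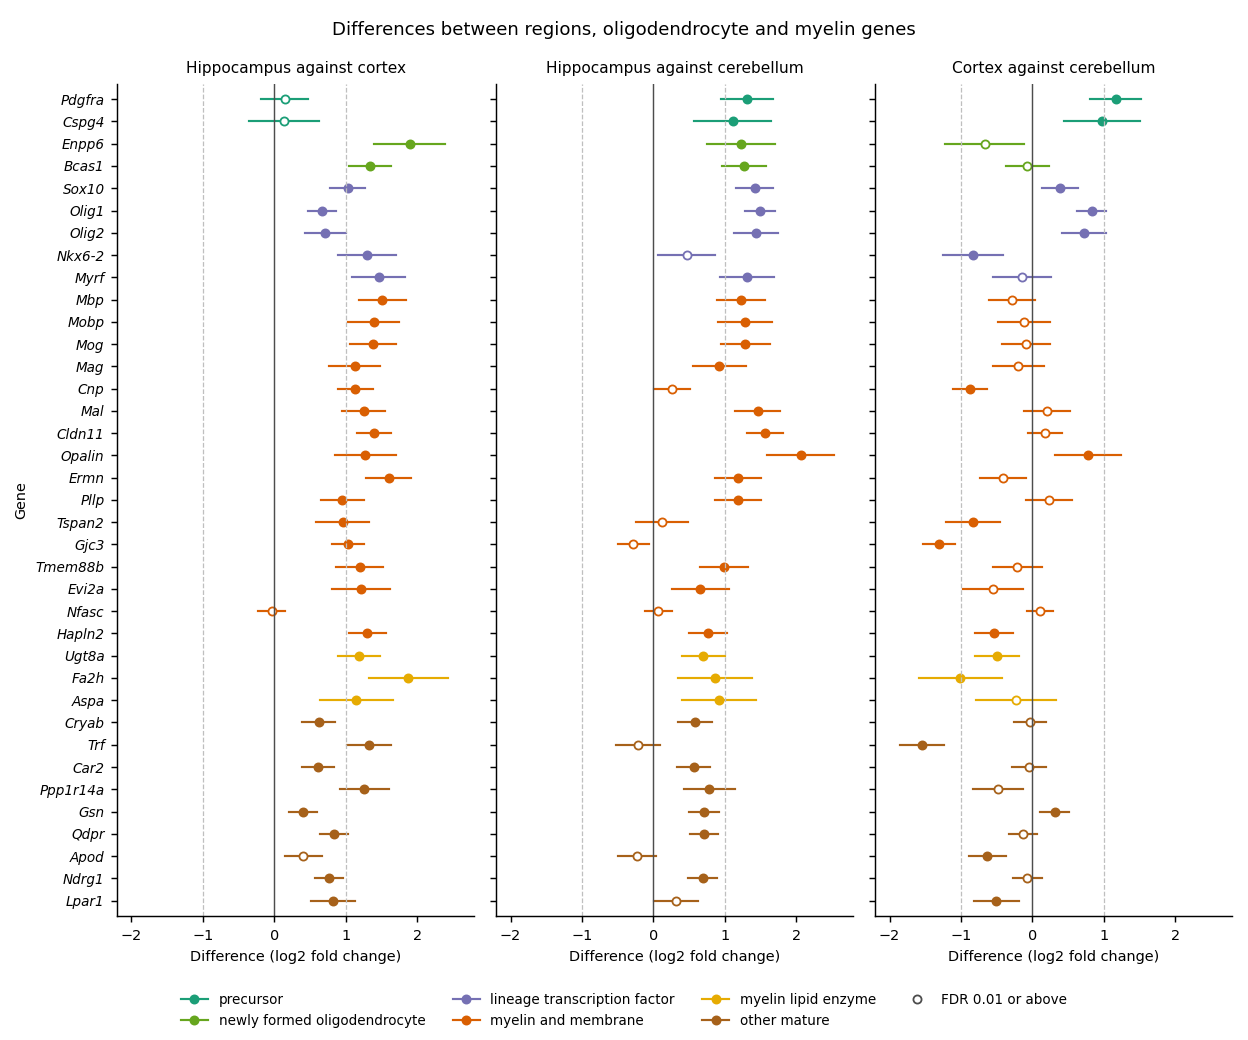
Differences between regions for the 37 members tested, in log2 fold change (horizontal axis) with 95% intervals, coloured by role; filled points have an FDR below 0.01 and dashed lines mark a fold of 2. Filled points lie right of 0 in both hippocampal comparisons, the precursor markers sit near 0 only in the first panel, and the third panel has filled points on both sides. Enpp6, Myrf and Aspa are drawn like the others, but they entered through the hippocampus alone. Their filling and intervals in the hippocampal panels are not to be read as a test.

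Pdgfra, the growth factor receptor of precursors (chromosome 5, 75151322 to 75198206), had a median level of 46.4 cpm in the hippocampus (37.6 to 70.9), 43.6 cpm in the cortex (26.1 to 61.7) and 19.97 cpm in the cerebellum (12.5 to 27.0). Hippocampus and cortex overlapped almost completely, and the difference of 0.15 had a 95% interval from -0.18 to 0.48 and an FDR of 0.516 by edgeR. The hippocampus was 2.48-fold higher than the cerebellum (log2 1.31 ± 0.17 SE, FDR 4.43e-07) and the cortex was 2.24-fold higher (1.16 ± 0.17, FDR 2.01e-06), in 6 of 6 and 7 of 7 mice with both regions.

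Cspg4, the NG2 proteoglycan (chromosome 9, 56865104 to 56899870), had 9.5 cpm in the hippocampus (6.35 to 13.8), 8.96 cpm in the cortex (4.75 to 13.3) and 4.55 cpm in the cerebellum (1.63 to 7.11). Its order was that of Pdgfra. The hippocampus differed from the cortex by 0.13 (interval -0.35 to 0.62, FDR 0.705) and exceeded the cerebellum 2.16-fold (FDR 6.68e-04), and the cortex exceeded the cerebellum 1.97-fold (FDR 0.00202). Intervals for the precursor markers between hippocampus and cortex thus end below the median mature difference of 1.17. A difference between the stages was not itself tested.

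Pdgfra and Cspg4 are also made by fibroblasts of the meninges and by mural cells of vessels. Mural markers (5 genes) summed to 105 to 155 cpm in the hippocampus, 123 to 206 cpm in the cortex and 122 to 160.5 cpm in the cerebellum, and meningeal fibroblast markers (5 genes) summed to 34.4 to 71.2, 37.5 to 85.3 and 56.8 to 75.6 cpm. The part of such cells in the levels of Pdgfra and Cspg4 was not tested.

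Enpp6 and Bcas1, markers of newly formed oligodendrocytes, had hippocampal levels that did not overlap those of the other regions, and Enpp6 entered the test through the hippocampus alone. Enpp6, a choline phosphodiesterase of premyelinating cells (chromosome 8, 46939197 to 47096762), had 4.25 cpm in the hippocampus (3.11 to 5.81), 1.16 cpm in the cortex (0.746 to 1.64) and 1.91 cpm in the cerebellum (0.755 to 2.96). The hippocampus stood clear of both others, by 3.72-fold (log2 1.89 ± 0.24) over the cortex and 2.34-fold (1.23 ± 0.23) over the cerebellum. Only 341 counts of Enpp6 were found over the 22 libraries.

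Bcas1, a marker of early myelinating cells, had 116 cpm in the hippocampus (86.8 to 135), 44.3 cpm in the cortex (29.7 to 66.4) and 46.5 cpm in the cerebellum (35.3 to 54.3). No hippocampus library overlapped the others, with folds of 2.53 (FDR 3.07e-08) and 2.41 (FDR 4.39e-08), and cortex and cerebellum did not pass (difference -0.07, interval -0.37 to 0.23).

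Gpr17, a receptor of premyelinating cells, was too low to test, with 136 counts in all. Its levels were 1.03 to 2.25 cpm in the hippocampus, 0.229 to 1.64 cpm in the cortex and 0 to 1.21 cpm in the cerebellum.

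The transcription factors fell into different orders. Olig1 and Olig2, basic helix-loop-helix factors expressed from precursor to mature cells, declined from hippocampus to cortex to cerebellum. Olig1 had 99.9 cpm in the hippocampus (80.4 to 121), 65.2 cpm in the cortex (50.3 to 77.7) and 37.5 cpm in the cerebellum (27.1 to 40.1), with no overlap between any pair of regions and FDRs of 3.68e-06, 2.58e-12 and 8.04e-08. Olig2 had 26.2 cpm (18.9 to 28.9), 14.6 cpm (9.75 to 19.4) and 8.93 cpm (6.11 to 12.7), and passed in the same directions with folds of 1.64, 2.70 and 1.65 for hippocampus over cortex, hippocampus over cerebellum and cortex over cerebellum.

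Sox10, which is needed for terminal differentiation, had 959 cpm in the hippocampus (675 to 1132), 445 cpm in the cortex (383 to 637) and 353 cpm in the cerebellum (309 to 415). The hippocampus was 2.04-fold over the cortex (FDR 1.37e-07) and 2.67-fold over the cerebellum (FDR 4.08e-10). Cortex exceeded cerebellum 1.31-fold (FDR 0.00712), and this call was lost when any of 8 libraries was left out or when transcripts were summed (FDR 0.0105 to 0.0232).

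Myrf, the regulator that switches on myelin genes, had 8.80 cpm in the hippocampus (6.90 to 14.1), 3.11 cpm in the cortex (2.73 to 5.05) and 3.48 cpm in the cerebellum (2.87 to 5.70). Hippocampus was 2.75-fold and 2.48-fold over the others, and cortex and cerebellum did not pass (-0.15, interval -0.55 to 0.26). Nkx6-2, a homeodomain factor of mature cells, was lowest in the cortex, with 6.06 cpm (3.48 to 10.8) against 17.3 cpm in the hippocampus (10.9 to 19.5) and 10.7 cpm in the cerebellum (8.61 to 17.7). It passed against both for the cortex (FDR 1.06e-05 and 0.00110) but not between hippocampus and cerebellum (0.47, FDR 0.0399). Without the cerebellum of CD mouse m242, its highest cerebellar library, the hippocampus passed over the cerebellum (0.69, FDR 0.00423) and the cortex no longer passed against it (-0.61, FDR 0.0128).

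Of the 16 proteins of myelin and its membranes, 15 passed as higher in hippocampus than in cortex (12.4% of all genes) and 12 as higher in hippocampus than in cerebellum (26.0% of all genes). Mbp, the basic protein that compacts the cytoplasmic faces of myelin, had 1819.5 cpm in the hippocampus (1297 to 2339), 576 cpm in the cortex (372 to 985) and 771 cpm in the cerebellum (593 to 976). Its hippocampal levels exceeded every other library, by 2.85-fold over the cortex (log2 1.51 ± 0.16, FDR 2.44e-08) and 2.34-fold over the cerebellum (1.23 ± 0.16, FDR 4.63e-07). Cortex and cerebellum overlapped (-0.28, interval -0.61 to 0.04).

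Mobp, a further cytoplasmic-face protein, had 262 cpm in the hippocampus (215 to 339) against 88.8 cpm (67.0 to 179) and 113 cpm (78.8 to 139) in cortex and cerebellum. Mog, on the outermost lamella, had 73.4 cpm (49.5 to 102) against 29.6 cpm (24.0 to 38.0) and 30.4 cpm (18.1 to 46.1). The folds of hippocampus over cortex were 2.62 for Mobp and 2.61 for Mog and those over cerebellum were 2.42 and 2.44, with FDRs from 1.28e-07 to 1.41e-06. Mag, an adhesion protein of the innermost lamella, had 705 cpm (461 to 849), 319.8 cpm (198 to 466) and 389 cpm (223 to 442), and was 2.18-fold over the cortex and 1.90-fold over the cerebellum.

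Opalin, a glycoprotein of central myelin (chromosome 19, 41061959 to 41077113), had the largest difference between hippocampus and cerebellum among the 37. Its median was 104 cpm in the hippocampus (66.3 to 172), 39.2 cpm in the cortex (30.9 to 67.6) and 24.4 cpm in the cerebellum (16.5 to 51.0). Hippocampus exceeded cerebellum 4.17-fold (log2 2.06 ± 0.23, FDR 2.11e-08) without overlap, and cortex 2.42-fold with 1 cortex library inside its range. It was higher in cortex than in cerebellum in 7 of 7 mice (1.72-fold, FDR 0.00390), although leaving out any of 4 libraries took that FDR to between 0.0109 and 0.0128.

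Cldn11 forms the tight junctions of myelin, and had 456 cpm in the hippocampus (361 to 532), 172 cpm in the cortex (113 to 236) and 156 cpm in the cerebellum (128 to 193). Its hippocampal excess was 2.63-fold (SE 0.11 on the log2 scale) and 2.96-fold (SE 0.12). Mal, a proteolipid of lipid rafts, had excesses of 2.38-fold and 2.75-fold. Ermn, a cytoskeletal protein of mature cells, had 123 cpm (69.6 to 136), 37.2 cpm (26.9 to 55.7) and 47.6 cpm (38.5 to 67.2), and its 3.04-fold excess over the cortex was the largest of the 16.

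Cnp, the cyclic nucleotide phosphodiesterase of uncompacted myelin (chromosome 11, 100574909 to 100591875), separated the cortex from both other regions. It had 1167 cpm in the hippocampus (1028 to 1649), 546 cpm in the cortex (433 to 816) and 1018 cpm in the cerebellum (909.5 to 1212). Every cerebellum library lay above every cortex library, by 1.83-fold (FDR 4.80e-07), and hippocampus and cerebellum did not pass (0.26, interval 0.01 to 0.51, FDR 0.0655).

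Gjc3, a connexin, was the membrane gene with the strongest cerebellar excess. It had 19.96 cpm in the cerebellum (19.1 to 21.8), 16.9 cpm in the hippocampus (12.6 to 20.7) and 8.62 cpm in the cortex (5.72 to 10.5). Cerebellum exceeded cortex 2.48-fold (log2 difference of cortex from cerebellum -1.31 ± 0.11, FDR 9.93e-11) with no overlap, in 7 of 7 mice, and hippocampus exceeded cortex 2.04-fold (FDR 3.45e-08). Tspan2, a tetraspanin, was also low in the cortex, with 15.2 cpm in the cerebellum (11.8 to 20.2), 15.9 cpm in the hippocampus (11.4 to 25.7) and 8.85 cpm in the cortex (5.34 to 13.1). It did not pass between hippocampus and cerebellum (0.12, interval -0.25 to 0.49).

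Pllp and Tmem88b, membrane proteins, and Evi2a were 1.93-fold, 2.29-fold and 2.31-fold higher in hippocampus than in cortex. Against the cerebellum they were 2.27-fold, 1.98-fold and 1.58-fold higher, and the last of these, Evi2a, has 862 counts in all, shares 4030 bases with the gene Evi2 on its strand and lost its call when any of 5 libraries was left out (FDR 0.0106 to 0.0194) and with the mouse as a block in edgeR (FDR 0.0226). Hapln2, a link protein of the node of Ranvier matrix, had 137 cpm (99.1 to 151), 51.2 cpm (32.5 to 67.4) and 80.1 cpm (56.7 to 94.5) in hippocampus, cortex and cerebellum. Its row is a predicted transcript, and the curated one held 8.2% of its counts. On the curated transcript the excess over the cerebellum was 0.50 in place of 0.76 and did not pass (FDR 0.0389).

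Nfasc did not follow the others. This adhesion molecule has forms in the glial paranode and in the neuronal node, which the counts do not separate, and its levels were 48.0 to 60.7 cpm in hippocampus, 50.9 to 63.0 cpm in cortex and 43.2 to 61.5 cpm in cerebellum. None of the 3 pairs passed, and their intervals stayed between -0.22 and 0.29.

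Among enzymes of myelin lipids, Fa2h (578), Aspa (499) and Gal3st1 (264) had few counts over the 22 libraries. Ugt8a, which makes galactosylceramide, had 38.6 cpm in the hippocampus (29.1 to 57.1), 17.9 cpm in the cortex (9.10 to 22.9) and 25.1 cpm in the cerebellum (22.8 to 29.9), with hippocampus 2.28-fold over cortex (FDR 3.34e-07) and 1.62-fold over cerebellum (FDR 2.16e-04). Fa2h, which hydroxylates the fatty acids of these lipids, had 6.16 cpm (4.51 to 10.4), 1.94 cpm (0.396 to 3.38) and 3.85 cpm (2.57 to 5.30). Its excess over the cortex was 3.67-fold (log2 1.88 ± 0.27). The cerebellum exceeded the cortex 2.02-fold (FDR 0.00322), and Fa2h lost this call without the cerebellum of CD mouse m118 (FDR 0.0116 by edgeR). Its call for hippocampus over cerebellum (1.82-fold, FDR 0.00489) was lost when any of 7 libraries was left out (FDR 0.0111 to 0.0162) and with the mouse as a block in edgeR (FDR 0.0137).

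Aspa, which frees acetate for lipid synthesis, was 2.22-fold higher in hippocampus than in cortex and 1.89-fold higher than in cerebellum. Gal3st1, the sulfotransferase that makes sulfatide, was not tested. It had 1.83 to 3.80 cpm in the hippocampus, 0.914 to 3.72 cpm in the cortex and 0.151 to 1.43 cpm in the cerebellum, and the cortex exceeded the cerebellum in 7 of 7 mice.

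The other 9 mature genes had smaller differences, with a median of 0.76 for hippocampus over cortex and 0.58 over cerebellum. Trf, the iron carrier transferrin, went furthest towards the cerebellum. It had 69.4 cpm in the hippocampus (45.7 to 85.3), 30.2 cpm in the cortex (19.0 to 43.5) and 88.5 cpm in the cerebellum (60.4 to 95.2). Cerebellum exceeded cortex 2.92-fold (log2 difference of cortex from cerebellum -1.54 ± 0.15, FDR 2.07e-09) without overlap, and the difference of hippocampus from cerebellum, -0.22, did not pass (FDR 0.207). Trf overlaps the annotated gene Gm20425 on its strand over 26307 bases, and choroid plexus cells also make transferrin. Apod, a lipocalin also made by fibroblasts and astrocytes, had 83.7 cpm (57.3 to 102), 65.4 cpm (46.3 to 81.2) and 97.6 cpm (75.7 to 127), and passed only for cerebellum over cortex (1.55-fold, FDR 1.20e-04), although DESeq2 gave an FDR of 0.00913 for hippocampus over cortex.

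Qdpr, which regenerates tetrahydrobiopterin, had 1105 cpm in the hippocampus (921 to 1347), 603 cpm in the cortex (488 to 794) and 675 cpm in the cerebellum (597 to 715), with no overlap of the hippocampus. Ndrg1 had 225 cpm (187 to 259), 129 cpm (106 to 159) and 135 cpm (121 to 173), also without overlap. Ppp1r14a, a phosphatase inhibitor, was 2.40-fold over the cortex. Cryab, a small heat shock protein, Car2, a carbonic anhydrase, and Gsn, an actin severing protein, are made by other cells too, and their excess in hippocampus was 1.54-fold, 1.53-fold and 1.32-fold over the cortex and 1.499-fold, 1.48-fold and 1.64-fold over the cerebellum. Gsn was also 1.24-fold higher in cortex than in cerebellum (FDR 0.00811), a call that was lost with the mouse as a block (FDR 0.010006 by edgeR) and without any of 9 libraries (FDR 0.0154 to 0.0238). Lpar1, a lysophosphatidic acid receptor, had 19.7 cpm (18.6 to 31.4), 11.9 cpm (8.71 to 17.8) and 17.0 cpm (15.1 to 19.6), and did not pass between hippocampus and cerebellum (0.32, FDR 0.0647).

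Within mice the order held for most members. Of the 37 tested, 32 were higher in hippocampus than in cortex in each of the 7 mice with both regions (13.5% of all genes tested), and 29 were higher in hippocampus than in cerebellum in each of 6 mice (26.0%). Both counts include Enpp6, Myrf and Aspa, which entered the test through the hippocampus alone and so add no support to them. Between cortex and cerebellum, 6 were higher in the cortex (23.5% of all genes) and 6 higher in the cerebellum (22.9%) in each of 7 mice, shares below those of all genes. The median mature difference was 1.30 in wild-type and 1.07 in CD mice between hippocampus and cortex, 0.80 and 0.67 between hippocampus and cerebellum, and -0.26 and -0.28 between cortex and cerebellum, as differences of mean log2 cpm.

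**Figure D3:**
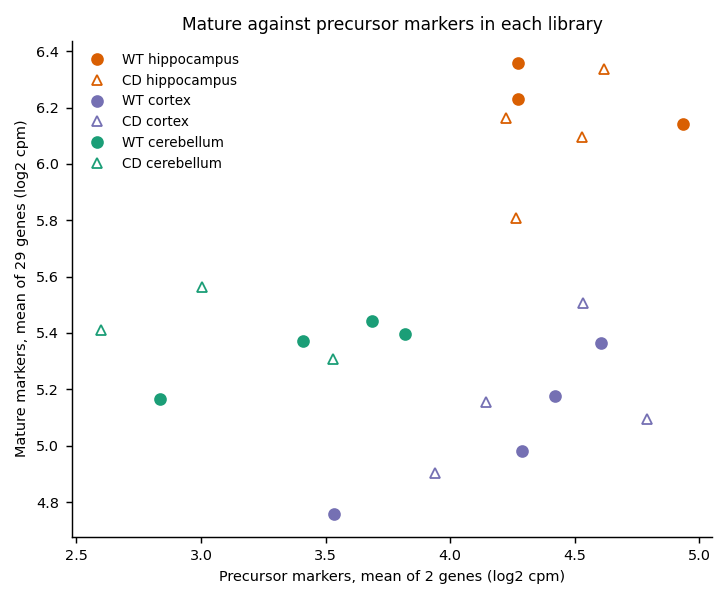
Mean log2 cpm of the 29 mature markers (vertical) against that of the 2 precursor markers (horizontal) in each of the 22 libraries, coloured by region, with filled circles for wild-type and open triangles for CD. Hippocampus libraries lie at the top (mature mean 5.81 to 6.36), cerebellum and cortex overlap on the vertical axis (5.17 to 5.56 and 4.76 to 5.51), and the cerebellum lies mostly to the left on the precursor axis (2.60 to 3.82, against 3.54 to 4.79 in the cortex).

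Other genes of the lineage were counted from lists set beside the members, and the shares of all genes called, given above for each pair and direction, are the background of these counts. Differences between lists were not tested. Of 17 further mature markers tested (of 20), 12 passed as higher in hippocampus than in cortex (12.4% of all genes) and none as lower, among them Dock10 (log2 2.51), Anln (2.35), Gpr37 (1.49) and Tmem63a (1.33). Against the cerebellum 10 passed as higher (26.0% of all genes) and 2 as lower (24.7%), led by Dock10 (3.13) and Enpp2 (2.53), with the axonal adhesion gene Cntn2 (-1.16) and the protease gene Klk6 (-2.13) lower. Enpp2 is also a gene of the choroid plexus. Between cortex and cerebellum 2 were higher and 5 lower in the cortex, where 26.0% and 25.7% of all genes were.

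Of 5 further precursor markers tested (of 9), 2 were higher and 1 lower in hippocampus than in cortex, against 12.4% and 13.5% of all genes (C1ql1 0.84, Ptprz1 0.49 and Sox6 -0.42). In hippocampus against cerebellum 3 were higher and 2 lower (26.0% and 24.7% of all genes). In cortex against cerebellum 2 were higher and 2 lower (26.0% and 25.7% of all genes). Sox6 (1.07) and C1ql1 (0.98) were those higher, and Megf11 (-3.49) and Ptprz1 (-1.03) were those lower. Of 8 further genes of newly formed cells tested (of 9), 4 were higher and 1 lower in hippocampus than in cortex (12.4% and 13.5% of all genes), with Mycl at 2.75, Ust at 1.79, and Bmp4, an inhibitor of maturation, at -1.27. Against the cerebellum only 2 were higher and 1 lower in hippocampus (26.0% and 24.7% of all genes), with a median of 0.07.

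Myelin needs cholesterol, and genes of sterol synthesis were counted in the same way. Of 13 tested, none was higher and 3 were lower in hippocampus than in cortex (among them Fdft1 at -0.60), with a median of -0.17, where 12.4% of all genes were higher and 13.5% lower. Against the cerebellum 10 were higher in hippocampus (26.0% of all genes), with Msmo1 at 1.31 and Sqle and Hmgcs1 at 1.23 and 1.22, and 9 were higher in cortex (26.0% of all genes). These enzymes are used by neurons and astrocytes as well.

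Of 7 tested genes for signals and receptors that act on myelination, 3 were lower and 1 higher in hippocampus than in cortex (13.5% and 12.4% of all genes). Against the cerebellum 5 were higher and 1 lower in hippocampus (26.0% and 24.7% of all genes). The next values are for hippocampus against cortex. Nrg1, an axonal growth factor, was lower (-1.73), as was Lingo1 (-0.98), which restrains differentiation, and Rtn4 (-0.37), while the chemokine Cxcl12 was higher (0.59). Pdgfa, the ligand of Pdgfra, did not pass between hippocampus and cortex (-0.27, FDR 0.0736) and was higher in both than in cerebellum (0.97 and 1.25).

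Markers of other cells also differed between regions. Of 7 neuronal markers, 5 were lower and 1 higher in hippocampus than in cortex (13.5% and 12.4% of all genes), with summed levels of 4521 to 4889 cpm and 5685 to 6632 cpm. Of 7 astrocyte markers 3 were higher and 2 lower, and none of 8 microglia markers passed. In the cerebellum all 8 microglia markers were lower than in hippocampus and in cortex, as were 26.0% of all genes in each comparison (226 to 279 cpm, against 676 to 819 cpm in hippocampus and 563 to 819 cpm in cortex). The part of such differences in those of the myelin genes was not tested.

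Libraries of the same group differed in their mature markers, and most members moved together. After removal of the 6 group means, the log2 cpm of 2 mature members correlated with a mean Pearson r of 0.35 over the 22 libraries, against 0.00084 for pairs of all genes tested. Such movement was not particular to them. Marker lists of other cells ran from -0.11 (endothelial) to 0.67 (choroid plexus), with meningeal fibroblasts at 0.45, mural cells at 0.35 (2 genes) and microglia at 0.23. The points share the library and its scaling, so these values are a description. The correlation of each member with the mean of the other mature members was highest for Mbp (0.95), Cldn11 (0.90), Mag (0.88), Ermn (0.85), Tmem88b (0.85), Bcas1 (0.85) and Sox10 (0.85). It was 0.30 for Pdgfra, 0.50 for Cspg4, 0.33 for Enpp6 and 0.18 for Myrf, the last of which has 744 counts. It was near 0 for Gsn (0.0013) and negative for Nfasc (-0.15).

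Departures from the group mean of the mature markers ran from -0.32 in the cortex of wild-type mouse m244 to 0.35 in the cortex of CD mouse m190, on the log2 scale. In the hippocampus they ran from -0.29 (CD mouse m242) to 0.24 (the library labelled CD, mouse m118), and in the cerebellum from -0.16 to 0.16. A mouse that was high in hippocampus was also high in cortex in sign for 5 of 7 mice, and 3 of 6 and 3 of 7 mice agreed in sign for the pairs with the cerebellum.

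**Figure D4:**
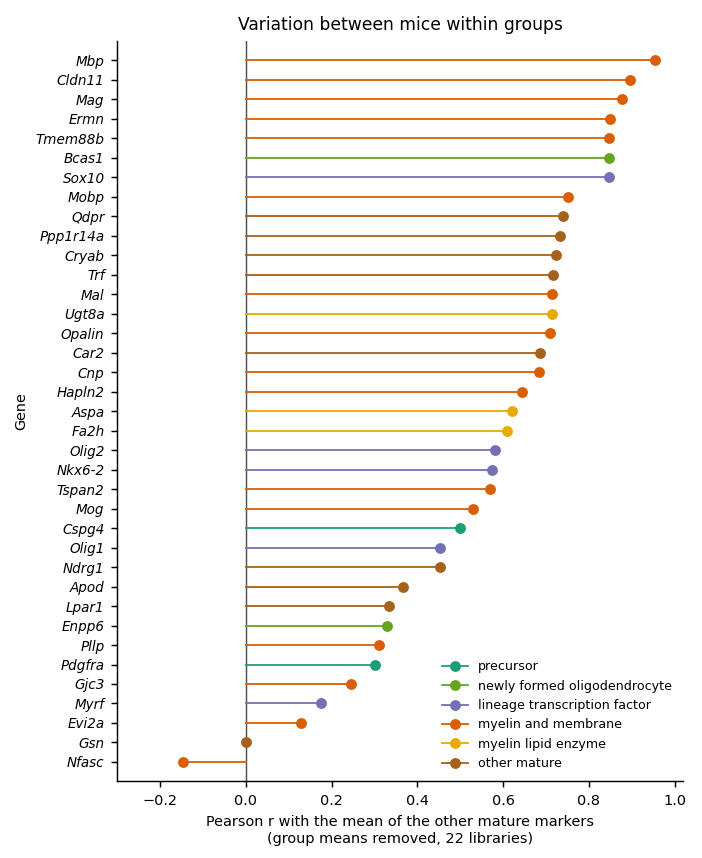
Pearson correlation (horizontal axis) of each of the 37 members tested with the mean of the other mature markers, over the 22 libraries after removal of group means, sorted and coloured by role. Mbp is at the top with 0.95, both precursor markers lie in the lower part of the order at 0.30 and 0.50, and Nfasc is at the bottom with -0.15.

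Among genes outside the list, the 10 whose departures were most like the mature mean were Gpr37 (r 0.95), Plekhb1 (0.87), Plekhh1 (0.85), Gjb1 (0.83), Hsd11b1 (0.80), Serpinb1a (0.78), Etv4 (0.78), Septin4 (0.78), Pdlim2 (0.76) and Arhgef10 (0.75). Gpr37, Plekhb1 and Gjb1 were in the list of further mature markers. Likeness within groups did not carry over to regions for each of them. Septin4 was lower in hippocampus and cortex than in cerebellum (-1.61 and -1.90), and Etv4 did not pass between hippocampus and cortex (-0.17, FDR 0.403).

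CD and wild-type mice were compared in each region to ask whether lower circTulp4 went with altered oligodendrocyte RNA. No member passed the thresholds (FDR below 0.01 and fold above 2) in the hippocampus (37 tested), cortex (33) or cerebellum (34) by edgeR, nor by DESeq2, and no gene tested did by edgeR (0% of 9964, 9927 and 10141 genes). At an unadjusted p below 0.05 there were 3 members in the hippocampus by edgeR and 1 by DESeq2 (4.22% of all genes by edgeR), 1 and 0 in the cortex (3.30%), and 4 and 3 in the cerebellum (4.55%). The 3 in the hippocampus included Enpp6, which entered the test through the wild-type libraries alone. The counts at an unadjusted p below 0.05 moved with single libraries. Without the library labelled CD of mouse m118 there were 6 in the hippocampus by edgeR (4.42% of all genes), namely Fa2h, Gjc3, Mal, Nkx6-2, Tmem88b and Tspan2, and without any 1 of the other hippocampus libraries there were 0 to 5. Over the regions together limma found none past the thresholds and 1 at an unadjusted p below 0.05 (3.58% of all genes). The interaction of genotype and region gave none at an FDR below 0.05 and 1 at an unadjusted p below 0.05 (3.91% of all genes).

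The medians of the mature differences, CD minus wild-type, were -0.14 (hippocampus), 0.05 (cortex) and 0.10 (cerebellum), beside -0.01, -0.005 and -0.002 for all genes. In the hippocampus 25 of 28 mature members had a lower estimate in CD, as did 5108 of 9964 genes, and the mature members varied together between libraries. The library of CD mouse m242 was the lowest of the 7 for mature markers (5532 cpm), and without it the median was -0.06, as it was without wild-type mouse m240. Without the library labelled CD of mouse m118 it was -0.23, and no member passed. In the cortex 17 of 26 estimates were higher in CD, and the sign of the median turned (-0.03) without CD mouse m190. It was 0.01 without wild-type mouse m244 and from 0.08 to 0.17 without CD mouse m118, m138 or m242 or wild-type mouse m162 or m240. In the cerebellum the median was 0.01 without wild-type mouse m162 or CD mouse m242. The 95% intervals of 35 of 37 members in the hippocampus, 33 of 33 in the cortex and 32 of 34 in the cerebellum lay wholly inside a fold of 2 either way.

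**Figure D5:**
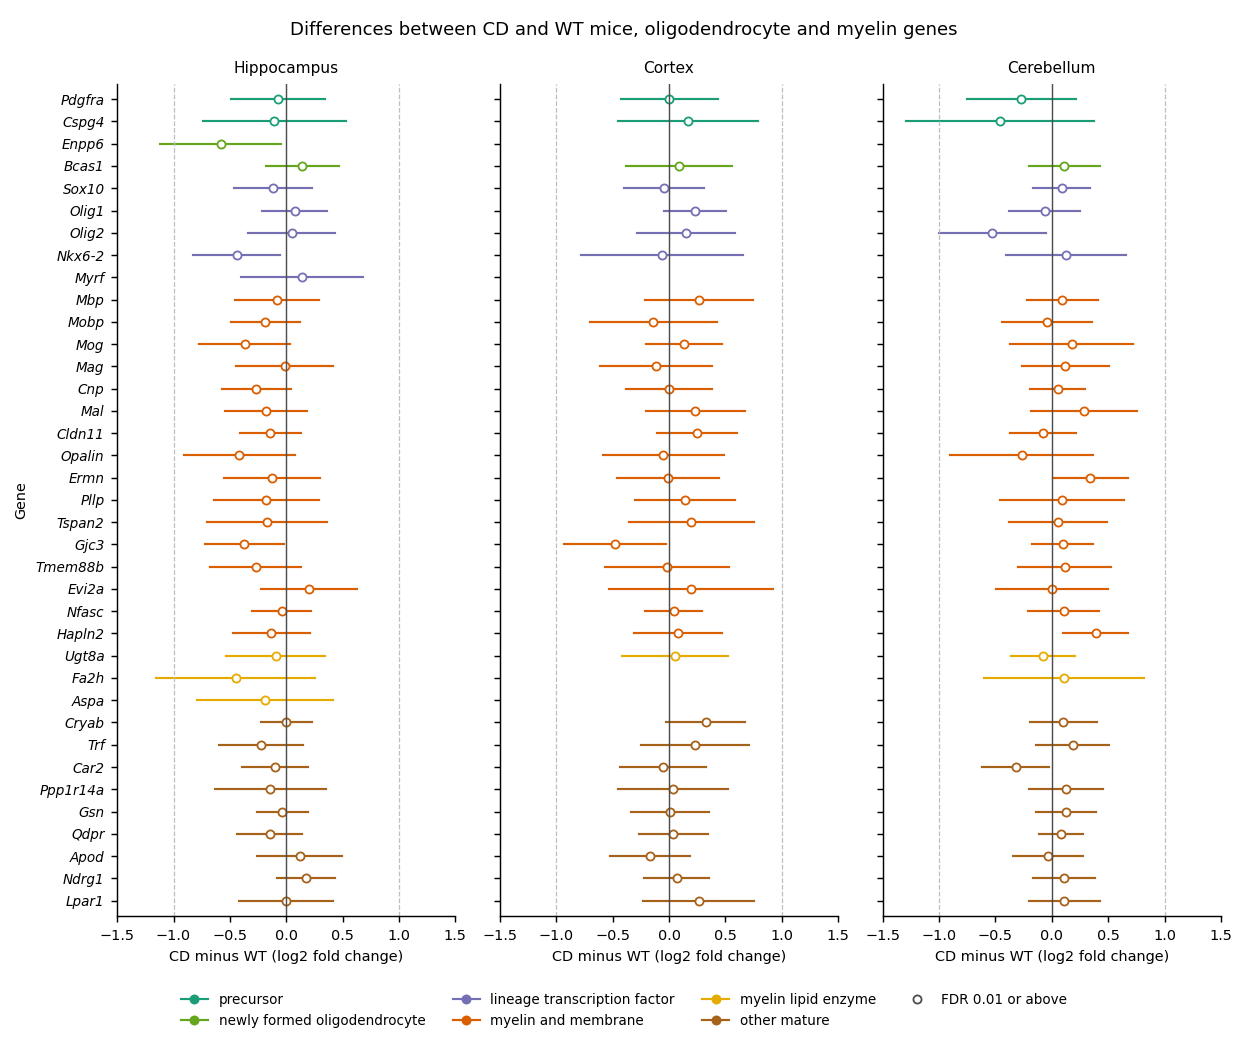
CD minus wild-type differences in log2 fold change (horizontal axis) with 95% intervals for the members tested in each region, coloured by role; dashed lines mark a fold of 2 and open points have an FDR of 0.01 or above. Every point is open in the 3 panels, and 34 of 37, 32 of 33 and 30 of 34 intervals cross 0.

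Precursor markers did not separate the genotypes. Pdgfra in the hippocampus was 37.6, 45.6 and 70.9 cpm in wild-type and 42.3, 46.4, 50.0 and 54.9 cpm in CD mice (-0.07, interval -0.49 to 0.34). In the cortex its wild-type levels were 26.1, 42.1, 46.1 and 61.7 cpm and its CD levels 38.4, 41.1, 45.1 and 56.0 cpm (0.002, interval -0.43 to 0.43). In the cerebellum wild-type mice had 12.5, 22.8, 26.4 and 27.0 cpm and CD mice 16.6, 18.3 and 19.97 cpm (-0.27, interval -0.76 to 0.21). The groups overlapped in each region. Cspg4 differed by -0.11, 0.17 and -0.46 in the same order, with intervals that reached from -1.29 to 0.79.

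Enpp6 was the newly formed marker with the lowest unadjusted p. It had 5.19, 5.58 and 5.81 cpm in wild-type hippocampi and 3.11, 3.52, 3.82 and 4.25 cpm in CD hippocampi. These did not overlap, and the difference was -0.58 (interval -1.12 to -0.04, unadjusted p 0.0367, FDR 0.997 by edgeR). Only wild-type hippocampi reached the 5 cpm of the filter, so Enpp6 entered this test through the group where it was higher. Its gap and p are therefore a description and no support for a difference. DESeq2 did not give Enpp6 an unadjusted p below 0.05, nor did edgeR without the filter. It was not among the members below 0.05 with summed or curated transcripts. In cortex and cerebellum its counts were below the filter. Without the library labelled CD of mouse m118 the estimate was -0.56 (interval -1.15 to 0.03, unadjusted p 0.0599, FDR 0.998 by edgeR). Gpr17 in the cerebellum was 0.185, 0.337, 0.755 and 1.21 cpm in wild-type and 0, 0 and 0.124 cpm in CD mice, a difference of a few counts that the filter left out. Without the filter it had an unadjusted p below 0.05 and did not pass.

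Nkx6-2 in the hippocampus was 18.2, 18.4 and 19.5 cpm in wild-type and 10.9, 12.3, 14.8 and 17.3 cpm in CD mice, again without overlap (-0.44, interval -0.83 to -0.05, unadjusted p 0.0295, FDR 0.997 by edgeR). Without the library labelled CD of mouse m118 it was -0.47 (unadjusted p 0.0323, FDR 0.998 by edgeR). Nkx6-2 also stayed below an unadjusted p of 0.05 without CD mouse m190. It did not without CD mouse m138 or m242, or without wild-type mouse m162, m240 or m244. The same factor differed by -0.06 in the cortex and 0.13 in the cerebellum. Olig2 in the cerebellum was 8.43, 10.1, 12.5 and 12.7 cpm in wild-type and 6.11, 7.33 and 8.93 cpm in CD mice, with overlap (-0.53, unadjusted p 0.0314, FDR 0.981 by edgeR).

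Gjc3 was the member with the lowest p over the regions together (-0.27, interval -0.45 to -0.08, unadjusted p 0.00640, FDR 0.9996 by limma). In the hippocampus it had 17.0, 19.99 and 20.7 cpm in wild-type and 12.6, 13.8, 16.4 and 16.9 cpm in CD mice, which did not overlap by a margin below the spread within groups. In the cortex it had 8.31, 9.84, 9.97 and 10.5 cpm against 5.72, 6.10, 7.30 and 8.94 cpm, with overlap. In the cerebellum it had 19.1, 19.2, 19.6 and 21.4 cpm against 19.96, 21.6 and 21.8 cpm, with overlap and with a higher CD mean. The estimates were -0.37, -0.48 and 0.09, and Gjc3 was also the member at an unadjusted p below 0.05 for the interaction (0.0297, FDR 0.999 by edgeR). Without the library labelled CD hippocampus of mouse m118 its estimates were -0.42 in the hippocampus and -0.28 over the regions, with unadjusted p of 0.0282 by edgeR and 0.00523 by limma, and 0.0223 for the interaction, and none of these passed (FDR 0.998, 0.999 and 0.9997). In the hippocampus Gjc3 also stayed below an unadjusted p of 0.05 without CD mouse m190 or wild-type mouse m240. It did not without CD mouse m138 or m242 or wild-type mouse m162 or m244. DESeq2, summed transcripts and no filter also left Gjc3 out there.

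In the cerebellum 3 further members had an unadjusted p below 0.05. Hapln2 was 56.7, 61.6, 67.1 and 82.9 cpm in wild-type and 80.1, 88.4 and 94.5 cpm in CD mice (0.39, interval 0.10 to 0.68, FDR 0.981 by edgeR), and on the curated transcript it did not have an unadjusted p below 0.05. Ermn was 38.5, 43.4, 46.5 and 56.7 cpm against 47.6, 60.3 and 67.2 cpm (0.34). Car2 was 26.3, 27.1, 27.1 and 32.0 cpm against 18.9, 23.5 and 24.6 cpm without overlap (-0.32). In the hippocampus the estimates of Hapln2, Ermn and Car2 were -0.13, -0.13 and -0.10.

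None of the further lists of precursor, newly formed, mature, sterol or signal genes held a member past the thresholds between genotypes, and at most 1 gene of each had an unadjusted p below 0.05 in any region. Schwann cell, mural and meningeal marker sums overlapped between genotypes in each region.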

How the data were processed

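PolyA RNA of the 3 regions was sequenced by CelSeq2 in both genotypes. The authors deposited raw counts per RefSeq transcript, made from STAR alignments (mm10) by the End Sequence Analysis Toolkit and not normalised; tool versions and the use of strand and of molecular identifiers in counting are not given in the sources used here. Of 85964 transcripts, 69288 matched 23037 genes, of which the transcript with most counts over all libraries was kept for each. Genes with at least 5 cpm in 2 or more libraries were tested with edgeR 4.0.16 (R 4.3.3; TMM, quasi-likelihood, Benjamini-Hochberg adjustment), over 22 libraries and 6 group means for regions and within each region for genotype. Genotype over the regions used limma 3.58.1 with the mouse as a block. Thresholds were an FDR below 0.01 and a fold above 2, and for the interaction an FDR below 0.05. Log2 levels carry a prior count of 2. The code was tested on simulated data.

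The labels give the mouse of each library, so regions are paired by animal; deviations from group means of the same mouse correlated across genes from 0.01 to 0.18 between hippocampus and cortex (7 mice), and from -0.02 to 0.08 and from -0.08 to 0.05 for the pairs with the cerebellum. The study states 1 library fewer per group than the labels give. Members and lists were chosen with earlier results of these data known. All members could be named, besides the 10 genes most like the mature mean, up to 4 called genes of each further list with the largest differences, and Tulp4; Cntn2 and Pdgfa fall outside this rule and were named after their values were seen. Alternatives were DESeq2 1.42.0 and its size factors, no filter, other transcript choices, the mouse block and leaving out each library. Values of some single genes of the further lists are not reported here.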

Additional observations from a re-analysis of the deposited data

Results flagged for a closer look

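In groups of 4 libraries, a single library stood far from the other 3 for 11 of 148 combinations of member and group, where chance gives about 7.4. In the hippocampus of CD mouse m242, Bcas1 was lowest at 86.8 cpm (the others 127 to 135) and Gsn was lowest at 66.6 cpm (78.3 to 80.2). In the library labelled CD hippocampus of mouse m118, whose Tulp4 counts went against its label, Olig1 was highest at 121 cpm (96.0 to 99.9), Lpar1 was highest at 31.4 cpm (18.6 to 19.8) and Pllp was lowest at 10.6 cpm (14.8 to 15.1). In the cortex of CD mouse m190, Mobp was highest at 179 cpm (67.0 to 80.4) and Pllp at 9.76 cpm (7.30 to 7.70). Lpar1 was highest in the cortex of CD mouse m118 at 17.8 cpm (11.7 to 12.7) and of wild-type mouse m162 at 16.5 cpm (8.71 to 9.37). In the cerebellum of wild-type mouse m240, Aspa was highest at 4.62 cpm (2.87 to 3.12) and Car2 at 32.0 cpm (26.3 to 27.1).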

How the results depend on the processing

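Every count of members past the FDR threshold, with or without the fold, stayed within 1.5 times its value, and no called difference changed direction, under the alternatives run. With the mouse as a replicate block in edgeR, 23 members passed the FDR and fold thresholds between hippocampus and cortex (33 on the FDR alone), 16 (27) between hippocampus and cerebellum and 3 (16) between cortex and cerebellum, with median mature differences of 1.18, 0.74 and -0.26; beside the calls of Evi2a, Fa2h and Gsn it ended no other. Genotype over the regions without the block (edgeR) and the interaction with it gave 0 members. Without the filter the counts were 23 (34), 18 (31) and 6 (21). Leaving out each library gave 21 to 24 (33 to 34), 15 to 18 (27 to 29) and 3 to 5 (12 to 17), and 0 for every genotype comparison. Counts of members at an unadjusted p below 0.05 between genotypes were less stable: 3 in the hippocampus became 1 (DESeq2 or summed transcripts) and 2 (curated transcripts), 1 in the cortex became 0 (DESeq2 or summed transcripts), 4 in the cerebellum became 2 (summed transcripts), 1 over the regions became 2 and 1 for the interaction became 4 without the filter, and without single libraries they ran from 0 to 6, 0 to 5, 0 to 4, 1 to 3 and 0 to 3. Median mature differences then ran from 1.10 to 1.25, 0.71 to 0.80 and -0.33 to -0.14 for the regions, and from -0.23 to -0.06, -0.03 to 0.17 and 0.01 to 0.15 for CD minus wild-type in hippocampus, cortex and cerebellum. Between cortex and cerebellum, the calls of Ugt8a, Lpar1 and Fa2h also depended on single libraries, and Enpp6, Ermn, Evi2a and Ppp1r14a passed under some alternatives. Members with few counts, such as Gpr17 with 136 in all, were limited by depth.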
